A study of Mus musculus with 9 samples.

Results

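The splicing array compared cassette exon use in the brain of mice without Mbnl2 and of wild-type mice. The events described are all those with an array score in the authors' deposited array table, 463 of its 468 rows, in 412 genes. A second deposited list holds 16 array targets that lay outside an event database, and all 16 are among these 463 events. The series itself holds 9 samples of female mice of mixed C57BL/6 and 129 SvlmJ background. RNA-seq covered the hippocampus of 3 wild-type mice and of 3 mice homozygous for the Mbnl2 ΔE2 deletion, aged 2 to 3 months, and crosslinking and immunoprecipitation (CLIP), which recovers RNA tags bound by a protein, covered 3 libraries of wild-type hippocampus at 3 months, for which the series text names BL6 mice in place of the mixed background. None of the 9 samples is an array, and the array columns are headed brain; neither the animals, nor the number of arrays, nor the brain region behind them is given in the sources used here.

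Muscleblind-like proteins are zinc finger proteins that bind RNA at short YGCY motifs and steer splicing towards the adult pattern. Their position on the transcript matters: binding downstream of an exon generally favours its inclusion, and binding in or upstream of it generally favours skipping. In myotonic dystrophy they are sequestered by expanded CUG or CCUG repeats, and Mbnl2 is the member known for its role in the brain.

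Each event has 4 brightness values, one for the skipping and one for the inclusion form in each of 2 conditions, and a separation score with a q-value that the authors computed. The inclusion shift used here is the log2 change of the inclusion brightness minus the log2 change of the skipping brightness, knockout over wild type, so a negative value means less inclusion in the knockout. There is 1 value per form and condition, with no replicates, so no error between animals can be given and the only test is the authors' q-value. The table names its conditions A and B. Array condition A was read as the knockout because the RNA-seq scores share the sign of the array scores, and in the read columns the deeper condition, with 1.44 times the reads of the other, was read as wild type; wild type held 1.42 times the junction-spanning fragments of the knockout. If this reading were wrong, every direction below would turn over and the sizes would stay.

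Without Mbnl2, exons lost and gained inclusion in nearly equal numbers. Of the 463 events, 419 were past a q-value of 0.05 in the authors' deposited table, which is 90.5% of those scored, in 380 genes. Less inclusion in the knockout was called for 220 events (47.5%) in 204 genes, and more inclusion for 199 events (43.0%) in 194 genes. The share of less included events among those called was 52.5% (95% exact Clopper-Pearson interval 47.6 to 57.4%). The called share is no rate for the whole array, since the table had been selected. The 317 events without RNA-seq reads there all had a score of at least 0.3 in size and a q-value of at most 0.05. Of the 146 events with reads, 69 had an array score under 0.3 in size, and all 69 were past a q-value of 0.05 in RNA-seq. Called scores of at least 0.5 in size numbered 141, of which 68 were towards less and 73 towards more inclusion. Only 29 reached a size of 1, with 14 less and 15 more included.

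In most called events the brightness of the skipping and inclusion forms changed with opposite signs. The calls favour this, because the authors' score lies close to the difference of these changes (median gap 0.05). Changes of any size were counted, such as skipping of 927 and 928 for the 147 nt exon of Ints7. Without replicates, a small change of a single form cannot be told from noise. Among the 220 less included events the skipping brightness was higher and the inclusion brightness lower in the knockout for 175, while both were lower for 36 and both higher for 8. Their median log2 change was 0.13 for the skipping form and -0.28 for the inclusion form. The loss of the inclusion form was the larger of the changes in 150 of the 220. Among the 199 more included events the skipping form was lower and the inclusion form higher for 173, with median log2 changes of -0.18 and 0.21. In these the inclusion form changed more in 109 events and the skipping form in 90. Summed over both forms, brightness hardly differed between conditions, with a median log2 change of -0.02 over all 463 events, and only 9 events reached 0.5 in size.

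**Figure D1:**
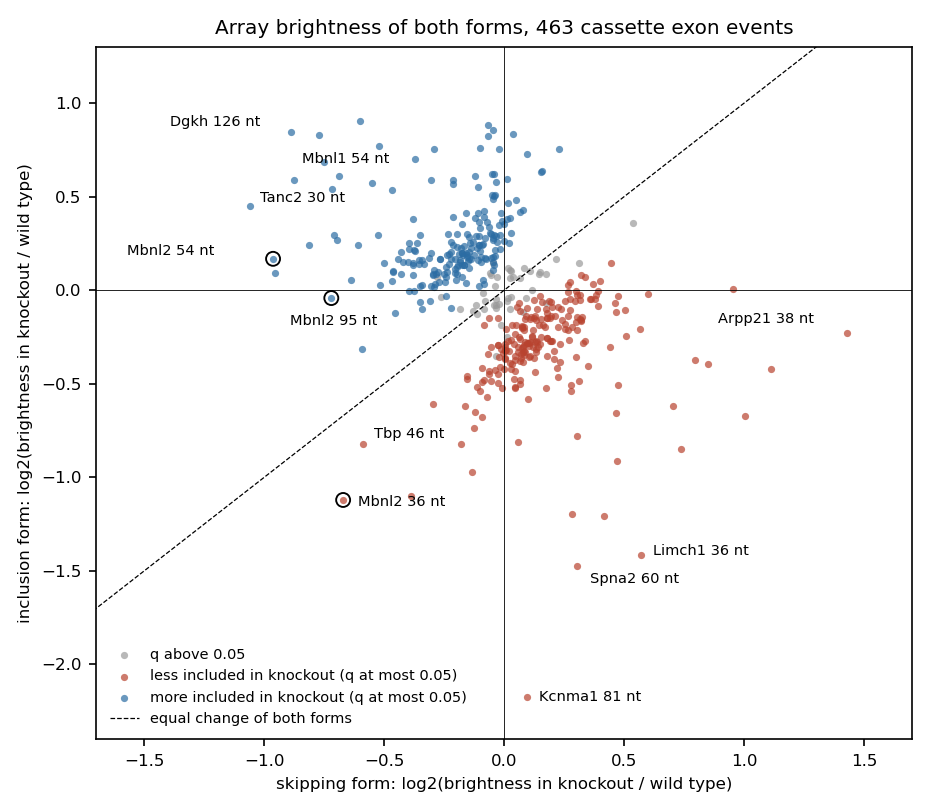
Log2 change of brightness, knockout over wild type, of the skipping form (horizontal) and the inclusion form (vertical) for each of the 463 events, coloured by call, with the Mbnl2 events circled. Most called events lie in the upper left (skipping down, inclusion up) or lower right of the plot, while the 3 Mbnl2 events lie towards lower values, with summed brightness 0.70 to 0.79 lower on the log2 scale.

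The largest loss of inclusion was in Kcnma1, the pore subunit of the large-conductance calcium-activated potassium channel. For its 81 nt exon (mm9, chromosome 14, 24155262 to 24155342) the inclusion brightness was 506 in wild type and 112 in the knockout, while the skipping brightness was 4243 and 4529, an inclusion shift of -2.27. In this event nearly the whole shift came from the inclusion form. Arpp21, which encodes a cAMP-regulated phosphoprotein that binds RNA, showed the reverse pattern. Its 38 nt exon (chromosome 9, 112089974 to 112090011) had an inclusion brightness of 11408 in wild type and 9716 in the knockout, and the skipping form went from 236 to 636, a shift of -1.66. Both events had a q-value listed as 0 in the authors' deposited table, as did each of the 15 largest events in either direction.

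Several of the exons with the largest losses belong to the cytoskeleton. Limch1, an activator of non-muscle myosin, had an inclusion brightness of 481 in wild type and 180 in the knockout for its 36 nt exon, against 706 and 1047 for skipping. Spna2, the alpha chain of nonerythroid spectrin, had 1515 and 545 for inclusion of its 60 nt exon and 3790 and 4682 for skipping. Dst, a plakin that links cytoskeletal filaments, went from 1499 to 797 and from 1762 to 2441 for its 72 nt exon. The shifts were -1.99, -1.78 and -1.38. Large losses also lay outside the cytoskeleton. For the 48 nt exon of St3gal3, a sialyltransferase, inclusion brightness went from 2427 to 1522 and skipping from 1043 to 2089, a shift of -1.68. The 63 nt exon of Csnk1d, the delta isoform of casein kinase 1, went from 1595 to 1191 in inclusion and from 584 to 1264 in skipping, a shift of -1.54.

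Ndrg4, a member of the N-myc downstream-regulated family, and Cacna1d, the pore subunit of an L-type calcium channel, were less included as well, with shifts of -1.59 and -1.48. Ndrg4 had an inclusion brightness of 2152 and 1193 for its 39 nt exon in wild type and knockout, and 3565 and 5938 for skipping. Cacna1d had 826 and 360 for its 60 nt exon, and 973 and 1185 for skipping. Brightness of different probes is not on one scale, so the ratio of inclusion to skipping brightness gives no share of transcripts. Other large losses were in Cyfip1 (154 nt), Bbx, an HMG box protein (90 nt), Slain2, a microtubule plus-end protein (78 nt), Sgip1, an endocytic protein (498 nt), and Ptprg, a receptor tyrosine phosphatase (87 nt), with shifts from -1.62 to -1.08.

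The largest gains of inclusion were in Tanc2, a postsynaptic scaffold protein, and in Dgkh, a diacylglycerol kinase. The 30 nt exon of Tanc2 (chromosome 11, 105775355 to 105775384) had an inclusion brightness of 763 in wild type and 1043 in the knockout, while skipping went from 1461 to 700. Its score in the authors' deposited table, 2.38, is the largest in size of all, but the shift from the brightness values is 1.51, ranked 11 in size. For Dgkh the 126 nt exon (chromosome 14, 78975694 to 78975819) had 1691 and 3037 for inclusion and 3573 and 1927 for skipping, a shift of 1.74 and the largest gain by brightness. In both genes the skipping signal went down and the inclusion signal up.

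Among the other gains, Ppp1r12a, the targeting subunit of myosin phosphatase, had an inclusion brightness of 396 in wild type and 740 in the knockout for its 171 nt exon, and 1389 and 916 for skipping. Add1, the membrane skeleton protein adducin, had 1069 and 1558 for its 37 nt exon and 973 and 591 for skipping. Ank3, the ankyrin of the axon initial segment, went from 1453 to 2158 for its 33 nt exon and from 1106 to 754 for skipping. These shifts were 1.50, 1.26 and 1.12. Spint2, a membrane-bound inhibitor of serine proteases, had 609 and 1040 for its 73 nt exon and 316 and 220 for skipping. The remaining large gains were in Hivep2, a zinc finger transcription factor (122 nt), Tom1l2, a trafficking adaptor (60 nt), Jag2, a Notch ligand (114 nt), Ppm2c, a pyruvate dehydrogenase phosphatase (35 nt), Hisppd2a, an inositol pyrophosphate kinase (63 nt), a second Cyfip1 exon (148 nt), the muscleblind exons and Kalrn (93 nt), with shifts of up to 1.60.

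**Figure D2:**
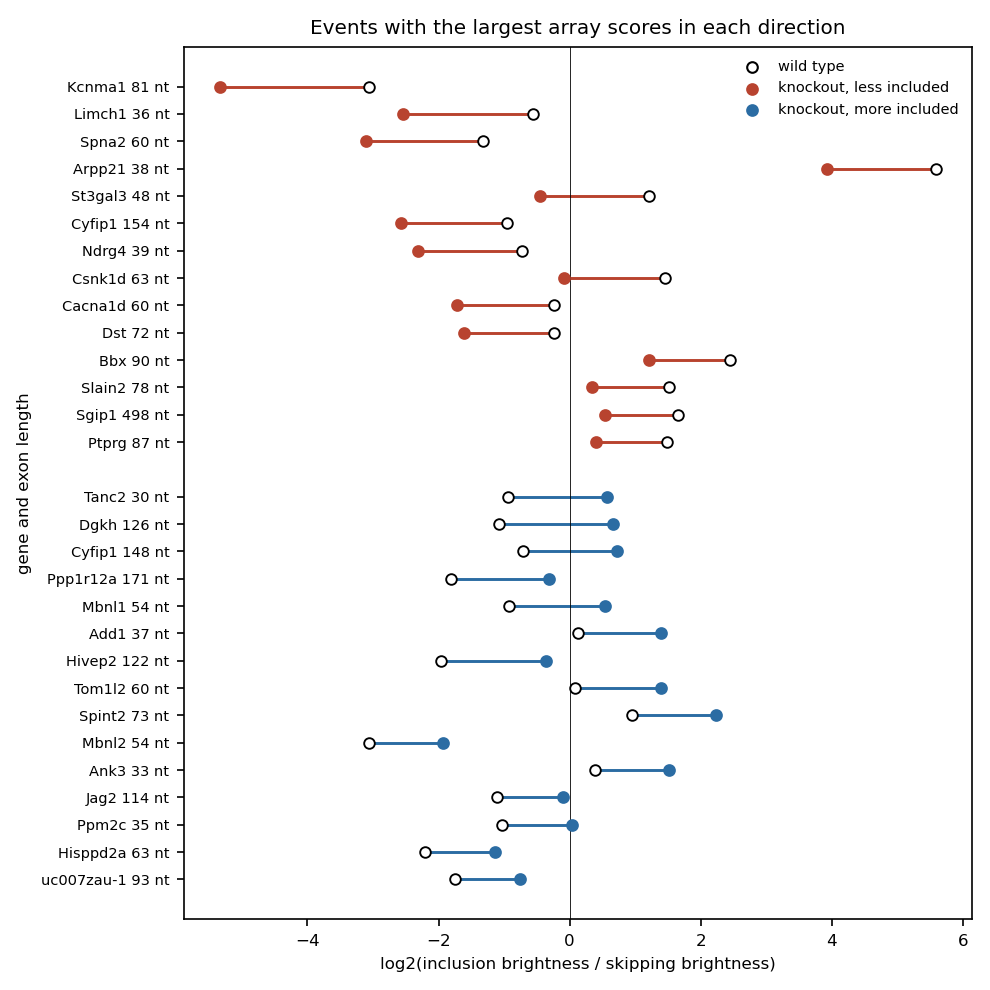
Log2 ratio of inclusion to skipping brightness in wild type (open) and knockout (filled) for 14 less and 15 more included events with the largest array scores, listed by gene and exon length, 1 value per condition. The lines between the points are the inclusion shifts, from -2.27 for Kcnma1 to 1.74 for Dgkh; uc007zau-1 is the Kalrn event.

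Muscleblind transcripts were among the affected ones. Muscleblind proteins are known to repress a 54 nt exon of their own transcripts, and on the array the 54 nt exons of both Mbnl1 and Mbnl2 were more included in the knockout. For Mbnl1 (chromosome 3, 60418605 to 60418658) inclusion went from 963 to 1450 and skipping from 1826 to 994, a shift of 1.47. For Mbnl2 (chromosome 14, 120794934 to 120794987) inclusion was 609 and 684 while skipping went from 5088 to 2609, a shift of 1.13. The other Mbnl2 exons moved in opposite directions. The 95 nt exon (120803860 to 120803954) had an inclusion brightness of 208 and 202 and a skipping brightness of 8153 and 4947, a shift of 0.68 towards inclusion. The 36 nt exon (120802558 to 120802593), whose event ends at the base before the 95 nt exon, had 1867 and 858 for inclusion and 8967 and 5630 for skipping, a shift of -0.45. Scores in the authors' deposited table were 1.16, 0.51 and -0.50 for the 54, 95 and 36 nt exons, with q-values listed as 0. No Mbnl3 event was scored.

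Total signal of the deleted gene was reduced in the knockout columns of the array. The summed brightness of the 54, 36 and 95 nt events of Mbnl2 changed by -0.79, -0.74 and -0.70 on the log2 scale and ranked 1, 3 and 4 from the lowest of 463. Tbp, the TATA-binding protein, held rank 2 with -0.78 for its 46 nt event. RNA-seq went the other way for Mbnl2: its 36 nt event had 293 reads in the condition read as wild type and 523 in that read as knockout, and its 54 nt event had 110 and 199, while the median event changed by -0.48 on the log2 scale. The sources used here do not place these probes and junctions relative to the deleted part, so they check the deletion no further. With 1 brightness value per condition, fewer cells of a type and less RNA per cell cannot be told apart.

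Opposite changes within one gene were not limited to Mbnl2. Of 30 genes with at least 2 called events, 18 had calls in both directions, 8 had only losses and 4 had only gains. The largest contrast was in Cyfip1, a subunit of the WAVE actin-regulatory complex. Its 154 nt exon (chromosome 7, 63153608 to 63153761) went from 450 to 195 in inclusion brightness and from 872 to 1162 in skipping. Its 148 nt event (63152185 to 63153607), which ends at the base before that exon, went from 665 to 1069 in inclusion and from 1093 to 650 in skipping. Neighbouring Cyfip1 exons thus moved in opposite directions, with shifts of -1.62 and 1.43. In 8 of the 18 genes the opposite pair had overlapping spans, namely Clip1, Cyfip1, Hivep2, Mark2, Mbnl2, Otud7b, Stx3 and Tbp; probes of such events may read shared transcripts, so the 2 calls may not be independent.

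In the other genes with both directions the exons lay apart. Arpp21 had, beside its 38 nt exon, a 105 nt exon (chromosome 9, 112028939 to 112029043) whose inclusion went from 167 to 251 against skipping of 3230 and 2784. Clasp1, a microtubule plus-end protein, had a 48 nt exon with inclusion of 136 and 208 and a 108 nt exon with skipping of 622 and 863. Ncam1, the neural cell adhesion molecule, was less included for its 30 nt exon (3447 to 2866) and more included for an 801 nt exon by a lower skipping signal (3166 to 2442). Ank3 had 2 gains and no loss, with scores of 1.13 and 0.58 in the authors' deposited table. The 2 Dtx2 events, both losses, are listed on chromosomes 5 and 7, so at least 1 of them is uncertain as to its gene.

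**Figure D3:**
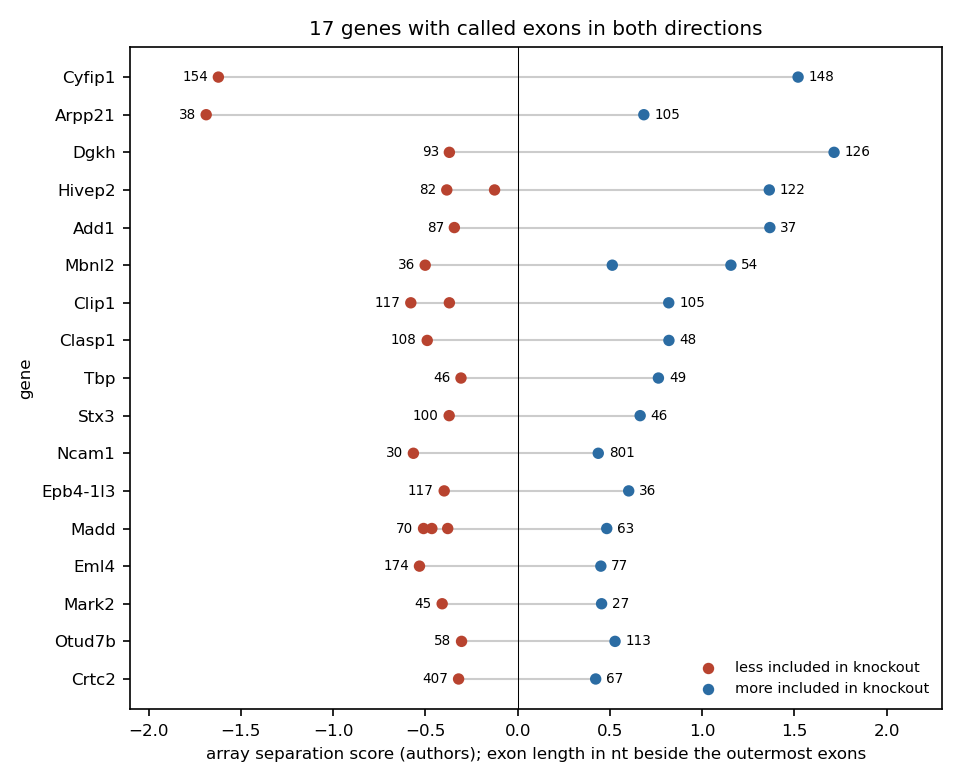
Array separation scores (authors' deposited table) of all called events in 17 of the 18 genes with calls in both directions, 1 row per gene, with the exon length in nt beside the outermost exons. Cyfip1 has the widest contrast, from -1.62 at the 154 nt exon to 1.52 at the 148 nt exon.

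By function, the genes were read against hand-made lists, which were written with earlier results of these data known and are therefore no independent evidence. Over all 463 events the median score was -0.09, with 220 less and 199 more included. Of 49 listed ion channel and neurotransmitter receptor genes, 9 were scored with 1 event each, and 6 were less and 3 more included (median score -0.30). Kcnma1 and Cacna1d led the losses. Grm5, a metabotropic glutamate receptor, had an inclusion brightness of 1527 in wild type and 915 in the knockout for its 96 nt exon, with skipping of 3831 and 3506. Grin1, the obligatory subunit of NMDA receptors, was the largest gain of the list: skipping of its 63 nt exon (chromosome 2, 25166863 to 25166925) went from 2157 to 1112 and inclusion from 6052 to 6444, a shift of 1.05.

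Synaptic scaffold, adhesion and vesicle genes had 28 events in 20 scored genes, of which 9 were less included, 15 more included and 4 not called (median score 0.24). Tanc2 was followed by Nrcam, an axonal adhesion molecule, whose 57 nt exon had inclusion of 152 and 256 against skipping of 8278 and 8145. Losses in this list included the 91 nt exon of Adam23, a synaptic transmembrane protein (308 to 157). The cytoskeleton list had the opposite balance, with 18 of 30 events less included, 8 more included and 4 not called in 18 genes (median score -0.36). Its largest members are the Limch1, Spna2 and Cyfip1 exons already described.

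Kinases, phosphatases and GTPase regulators had 8 losses and 7 gains among 15 events in 13 genes, led by Dgkh, Csnk1d and Ppp1r12a. Arhgef11, a guanine nucleotide exchange factor, was less included at its 30 nt exon, from 1286 to 1040 in inclusion and 314 to 426 in skipping. Membrane trafficking genes had 5 losses, 6 gains and 2 uncalled events among 13 in 10 genes. The 36 nt exon of Clta, the clathrin light chain a, went from 2224 to 1266 with skipping nearly level at 1965 and 2044, and the 45 nt exon of Exoc1, an exocyst subunit, from 279 to 342 with skipping of 242 and 168. RNA-binding genes had 4 losses and 6 gains among 10 events in 7 genes, with the muscleblind and Arpp21 exons in front. Transcription and chromatin regulators had 3 losses, 3 gains and 4 uncalled events among 10 in 5 genes. There, both events of Nfix, a nuclear factor I protein, were gains, and the 123 nt exon went from 867 to 1334 in inclusion with skipping of 5154 and 5002.

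A list of targets of muscleblind proteins or of exons misspliced in myotonic dystrophy, drawn from general knowledge that includes this study, had 35 events in 23 genes, with 16 losses, 16 gains and 3 uncalled. Its median score of -0.05 was near the -0.09 of all events, but its median size of 0.54 was above the 0.39 of all events. This was not particular to the list. Median sizes were 0.60 for ion channels and receptors, 0.58 for kinases and for the cytoskeleton, and 0.56 for RNA-binding genes. They were lower for synaptic (0.398), trafficking (0.395) and transcription genes (0.21). No composition of cell types could be read from the table. Of 30 marker genes of neurons, astrocytes, oligodendrocytes, microglia, endothelium and choroid plexus, only Mag, an oligodendrocyte marker, had an event, and its 45 nt exon was not called (q-value 0.128 in the authors' deposited table). Its summed brightness was 0.45 higher in the knockout on the log2 scale, rank 459 of 463 from the lowest.

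The 16 array targets outside the event database were split into 10 gains and 6 losses. In that deposited list every score has the opposite sign of the array table, as do all 158 events matched to the authors' joint table of both platforms, so positive there means less inclusion in the knockout. The 148 nt exon of Cyfip1 leads it. Next is an event of Kalrn, a guanine nucleotide exchange factor of dendritic spines, at chromosome 16 (34040095 to 34053645), with inclusion of 123 and 178 against skipping of 415 and 300. Ppfia4, a liprin of the presynaptic zone, changed only in its inclusion form, from 757 to 1350 at a 111 nt exon, with skipping of 3500 and 3585.

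The other 13 events of the list changed less. Losses were found in Ndufs4, a subunit of respiratory complex I (79 nt, inclusion 649 to 463), Miga1 (119 nt, 292 to 165), Gpr34, a G protein-coupled receptor of microglia (35 nt, 385 to 259), Pxdc1 (154 nt, 383 to 306), Zdbf2 (83 nt, 205 to 168) and Aamdc (104 nt, 235 to 207). Further gains were in Asap2, an Arf GTPase-activating protein (135 nt, 435 to 567), Lrp1b, a lipoprotein receptor relative (99 nt, 1372 to 1636), D5Ertd579e (98 nt, 161 to 211), Mast4, a serine/threonine kinase (201 nt, 300 to 368), Otud7b, a deubiquitinase (113 nt, 381 to 508), Tmem63c (41 nt, 3374 to 3721) and Plekha4 (86 nt, 114 to 136). Their shifts had sizes of 0.43 to 0.80. Of all 463 events, 129 had at least 1 brightness value under 200; the lowest value was 79 and the highest 15609.

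Events near the q-value limit differed widely in the size of their shift. Just inside lay Myh11, with a q-value of 0.049, and AU040829, Jmjd1b and Myef2, each with 0.05, in the authors' deposited table. Their shifts were -0.57, -0.33, -0.28 and 0.12 in that order. Usp14 (score -0.142) and Scnm1 (score 0.312) also had a q-value of 0.049. Myh11 was taken among these ties because its score was the most negative. For Myef2 inclusion was 2714 and 2778 and skipping 2483 and 2339, and for Myh11 inclusion was 240 and 167 and skipping 386 and 398. Just outside lay Rnps1 and Pqlc1 with 0.068, Spag9 with 0.069 and Dlgap1 with 0.072 in the authors' deposited table. The shift of Spag9, -0.32, was larger in size than that of Myef2, so the limit does not follow the size of the shift.

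Exon lengths were given for all events, and lengths divisible by 3, which keep a reading frame, were most frequent among short exons. The length was a multiple of 3 for 130 of 220 less included exons (59.1%, 95% exact interval 52.3 to 65.7%), for 133 of 199 more included exons (66.8%, 59.8 to 73.3%) and for 31 of 44 uncalled exons (70.5%, 54.8 to 83.2%). These intervals overlap, and 63.5% of all 463 were such multiples. The uncalled exons were all past the authors' RNA-seq q-value limit, so they do not stand for unaffected exons. Among the 126 exons of at most 60 nt the share was 78.6% (70.4 to 85.4%), against 58.4% (51.2 to 65.3%) for 61 to 120 nt and 57.1% (48.5 to 65.5%) for longer ones. Median lengths were 90 nt for less and 95 nt for more included exons. The 29 exons with a score of at least 1 in size had a median of 63 nt, and 22 of them were multiples of 3.

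For 146 of the array events the array table also held pooled RNA-seq reads of the hippocampus and a score. The authors' joint table gives a further RNA-seq measure, a change of inclusion with a Benjamini FDR. Positive changes there go with less inclusion in the knockout. It also covers events without such reads, for example Kcnma1 (0.27, FDR 9.42e-08) and the 122 nt exon of Hivep2 (0.03, FDR 0.975). The comparison of signs did not use it. By score, signs were equal on both platforms for 62 of the 68 events that both called. Because the array condition taken as knockout was chosen by this shared sign, that most signs are equal was fixed by the choice and supports nothing. What the choice did not fix is how the share varies among events. The share of equal directions went up with the array score: among events past the q-value in RNA-seq it was 22 of 34 for array scores under 0.1 in size, 30 of 35 for 0.1 to 0.3 and 42 of 43 for at least 0.3. Where only the array called a change, 18 of 34 events had the same direction, 52.9% (95% exact interval 35.1 to 70.2%), although the median array score of these events, 0.47, was no smaller than the 0.38 of those past both limits. Their median read number was 273 against 326.5. Their median RNA-seq score was smaller in size, 0.385 against 1.03, as a cut at the RNA-seq limit favours. The contrast therefore cannot show how often the array direction holds in RNA-seq. Tom1l2 had opposite signs by score (authors' RNA-seq q-value 0.299), but its joint-table change was -0.17 (FDR 0.00125), the array direction. For the 70 nt exon of Madd, less included on the array, that change was -0.03 (FDR 0.693).

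Pooled reads were also tested by two-sided Fisher's exact tests, adjusted by Benjamini-Hochberg over the 151 events with reads, which compare pooled libraries and not animals. This called 67.5% of the 151, with 50 less included (33.1%) and 52 more included (34.4%). Of 52 less included array events with reads, 28 were also less included by reads, 3 were more included and 21 did not pass; of 50 more included array events, 26 were more included, 2 less included and 22 did not pass. The 44 uncalled array events split into 19 and 19 with 6 not passing. All 44 were past the authors' RNA-seq q-value of 0.05, as were 117 of the 151 events with reads. Events had entered the table by RNA-seq as well, so that selection favoured a high share passing here. These shares are no rate at which reads find changes that the array missed. Inclusion of the Csnk1d exon made up 72.1% of wild-type reads (95% exact interval 68.1 to 75.9%) but 41.0% of knockout reads (34.2 to 47.9%), with a Fisher's exact adjusted p of 4.40e-13. The Spint2 exon went from 2.87% (1.06 to 6.14%) to 25.9% (19.4 to 33.4%), the Mbnl2 54 nt exon from 64.5% (54.9 to 73.4%) to 94.0% (89.7 to 96.8%) and the Kalrn exon from 50.0% (36.8 to 63.2%) to 89.0% (79.5 to 95.1%). In these 4 events the intervals of the genotypes do not overlap.

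Other exons with large array shifts were less clear in these pooled reads. Inclusion of the Mbnl1 54 nt exon was 57.1% (43.2 to 70.3%) and 73.3% (61.9 to 82.9%), with a Fisher's exact adjusted p of 0.0802. Only 56 and 75 reads entered that test. The authors' joint table gives this exon an RNA-seq change of -0.30 (FDR 1.08e-06), towards more inclusion as on the array. The 36 nt exon of Mbnl2 had 94.2% (90.9 to 96.6%) and 91.4% (88.7 to 93.7%), with an adjusted p of 0.201 by Fisher's exact test. For the Grm5 exon the reads gave 92.2% and 92.1%, while array inclusion went from 1527 to 915 and skipping from 3831 to 3506. The joint-table change of this exon was 0.09 (FDR 0.0788), towards less inclusion. The Clta 36 nt exon fell from 90.9% (88.7 to 92.7%) to 86.6% (83.8 to 89.1%), with a Fisher's exact adjusted p of 0.0215. These intervals hold counting error alone, because the reads of all mice of a genotype were pooled, and they leave out variation between animals. Even the counting error may be understated, because reads copied by PCR do not each stand for a separate molecule.

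Past both q-values with opposite signs in the authors' deposited table were 6 events. Of these, Gpr162 (117 nt), Nbr1 (111 nt), Ppp3ca (30 nt) and Saps2 (81 nt) had array shifts of only 0.08 to 0.15 in size. In Nbr1, a selective autophagy receptor, wild-type reads gave 86.2% (82.0 to 89.8%) and knockout reads 95.2% (92.1 to 97.3%), while array inclusion was 164 and 148. In Ppp3ca, the catalytic subunit of calcineurin, reads gave 68.7% (66.7 to 70.6%) and 62.4% (59.9 to 64.8%), while array inclusion was 9410 and 10133. The 27 nt exon of Odz4, a teneurin, has an RNA-seq score of -0.17 in the authors' deposited table but a higher inclusion share in pooled reads of the knockout (69.8% and 86.0%, Fisher's exact adjusted p = 0.0707), which is the direction of its array shift of 0.34.

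**Figure D4:**
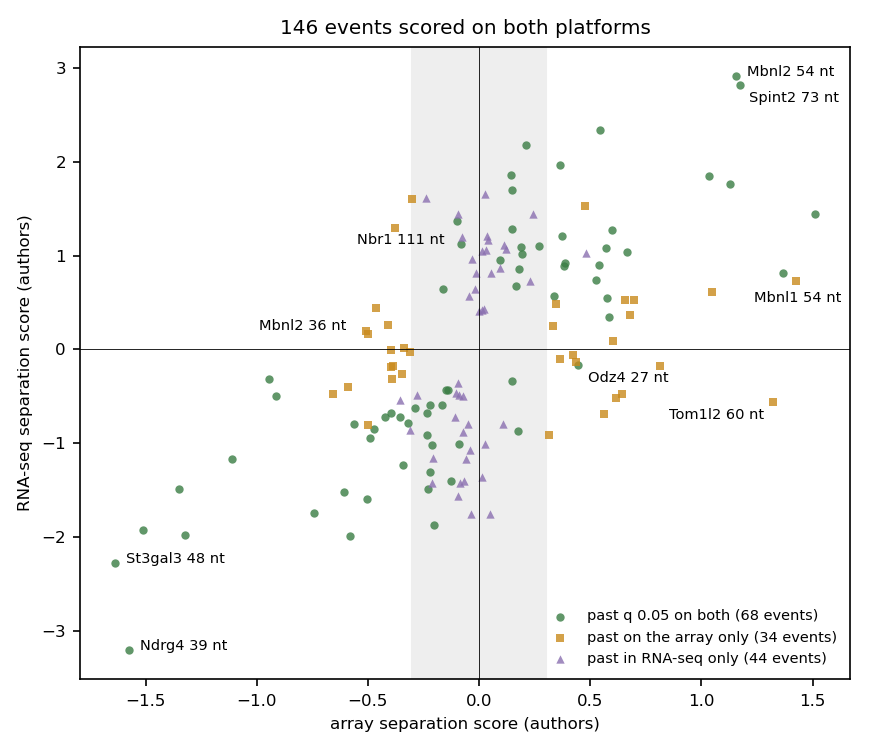
Array score (horizontal) against RNA-seq score (vertical), both from the authors' deposited table, for the 146 events scored on both platforms, marked by which q-value was at most 0.05; the grey band marks array scores under 0.3 in size. All but 6 of the 68 events past both limits lie in the lower left or upper right, and the 34 events past on the array only are spread over all signs.

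CLIP tags of Mbnl2 were counted beside the array exons, a measure independent of the array. Exon positions were found for 157 events, of which 72 were less and 72 more included, all from the joint table, which holds RNA-seq targets and array targets with a score of at least 0.5 in size. The libraries held 159144, 209430 and 334857 unique tags. Within 1000 nt, less included exons had 108 tags upstream and 275 downstream over the 3 libraries, and more included exons had 213 upstream and 189 downstream. Around less included exons tags thus lay mostly downstream, and around more included exons they were nearly even.

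Per exon, the mean of log2((downstream + 1)/(upstream + 1)) was 0.25 ± 0.10 (SD, n = 3 libraries) for less included exons and -0.04 ± 0.07 for more included exons. The difference was 0.21, 0.24 and 0.40 in the 3 libraries, positive in 3 of 3, with a mean of 0.28. A two-sided exact sign-flip test over libraries gave p = 0.25, the smallest p that 3 libraries allow. The SD and this test cover the spread between libraries at the same exons. The spread over exons was not measured. More tags downstream than upstream were found for 30 of 72 less included exons, against 19 with more upstream, and for 22 of 72 more included exons, against 30 with more upstream; 18 and 17 had no tag.

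The sets were compared next to the exon. In the first 200 nt upstream, more included exons had 131 tags, spread over 30 exons, and less included exons had 26 tags over 16 exons. In the first 200 nt downstream, less included exons had 83 tags over 26 exons and more included exons 56 over 16. Single exons weigh on these sums. In the bin from 800 to 1000 nt downstream of less included exons, 59 of 93 tags were beside Ndrg4, and without Ndrg4 the mean difference between the sets was 0.23. Windows of 1000 nt can also reach past the ends of the event into the next exon or intron. Inside the events, less included exons had 85 tags upstream and 189 downstream and more included exons 198 and 161, and the mean difference was 0.30, with 0.20, 0.25 and 0.45 in the 3 libraries.

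Named exons show both arrangements. Within 1000 nt, Spna2 had 2 tags upstream and 36 downstream and Grm5 had 1 and 17, all inside their events; both are less included. Ndrg4 had 2 and 80 (26, 21 and 33 downstream in the 3 libraries), of which 59 downstream tags lay past the end of the event and 21 inside it. The 108 nt exon of Cldn10, a claudin of tight junctions, also less included, had 0 and 19, with all 19 past the end of its event. On the other side, the 147 nt exon of Cadps, a vesicle priming protein, had 25 upstream and 0 downstream, the 27 nt exon of Ank3 had 20 and 2 (14 and 2 inside the event), and the 95 nt exon of Mbnl2 had 15 and 3; all are more included. The 54 nt exons of Mbnl2 and Mbnl1 had 19 and 12, and 8 and 5, and inside the events 19 and 8, and 8 and 1. Exceptions occurred in each set. The less included 154 nt exon of Cyfip1 had 13 tags upstream and 1 downstream, but 12 of the 13 lay past the start of its event, towards its more included neighbour. The more included 105 nt exon of Arpp21 had 1 upstream and 16 downstream, and the 37 nt exon of Add1 had 10 and 17.

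**Figure D5:**
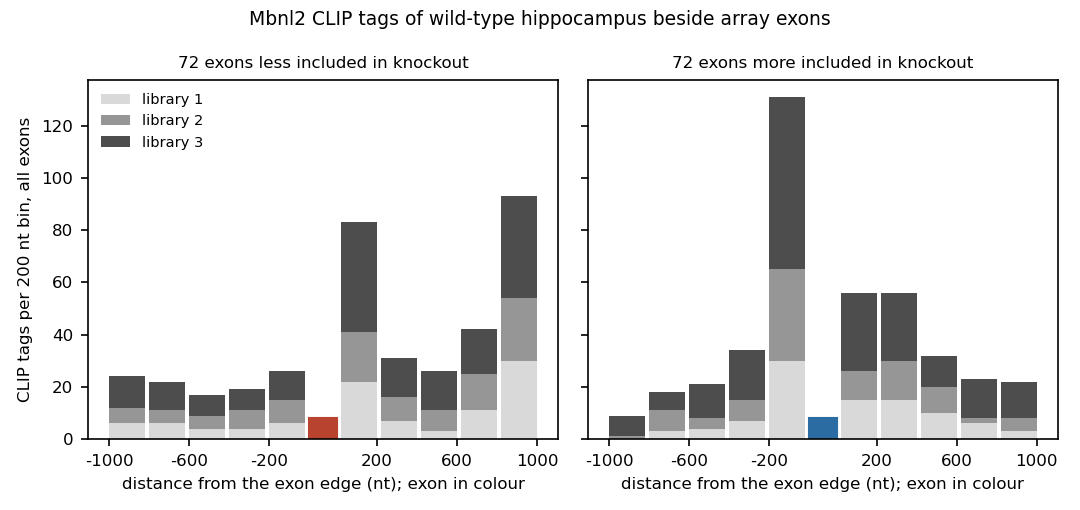
CLIP tags per 200 nt bin beside the 72 less included and 72 more included array exons, summed over exons and stacked by wild-type library; the coloured block marks the exon and its height carries no value. More included exons have their highest bin directly upstream (131 tags); less included exons have 83 directly downstream and 93 in the outermost bin, 59 of them from Ndrg4 and past the end of its event.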

How the data were processed

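The authors deposited the array separation score, its q-value (a p-value adjusted by the authors) and the brightness of both forms in conditions A and B, per the file headers. The sources used here do not give the array platform, its normalization, its replicates or the test. Reads refer to mm9; TopHat 1.3.2 and Bowtie (RNA-seq) and Novoalign (CLIP) are named per the submitters' processing notes. Counts of read pairs and junction fragments per library and pooled reads per event were deposited by the authors, as were CLIP tags with positions and a score column that was not used.

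From these, the inclusion shift, calls at the authors' q-value of 0.05, exact Clopper-Pearson intervals at 95%, Fisher's exact tests on pooled reads and tag counts on the exon's strand were computed in Python 3.11.15 with pandas 2.3.3, numpy 2.4.6 and scipy 1.17.1, and plotted with matplotlib 3.10.9. The counting and the test were tested on simulated data. The brightness is no count, so no test was run on it, and a Fisher's exact test was run on the RNA-seq reads alone. Exon positions come from the joint table; 1 of 158 matched exons began at the edge of its event and was left out of the tag counts. Gene symbols of the 16 targets outside the database were matched by gene ID to the RefSeq table of GRCm38.p6, and all 16 matched.

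Events and gene lists were chosen with earlier results of these data known. Named events are the 15 largest scores in each direction, every target outside the database, every muscleblind event, those past both q-values with opposite signs, up to 4 of each of 8 gene lists and 4 on each side of the q-value limit; others were named after their values were seen, for their tags or for genes with several events. After the files were seen, list symbols were respelled as in the table and Arpp21 was moved to the RNA-binding list. Sequences of the exons are not used here. A few genes that these rules name are not reported here, though they stay in all counts.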

Additional observations from a re-analysis of the deposited data

How the results depend on the processing

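Of the alternatives tried, 26 left their result in place, 5 moved it and none turned its direction. With all 4 brightness values at least 200, a limit chosen after seeing the data, 144 less included events were called in place of 220. More included events then numbered 148 in place of 199, so losses no longer outnumbered gains. With both scores at least 0.3 in size, 100% of 39 events shared their direction between platforms (95% exact interval 91.0 to 100%). With inclusion reads divided by 2, for the 2 junctions of the inclusion form, Fisher's exact tests called 29 less and 31 more included events in place of 50 and 52; fewer reads enter that test. With a window of 200 nt, also chosen after seeing the data, the tag difference between less and more included exons was 0.40 in place of 0.28. With windows cut off at the ends of the event, also added after seeing the data, it was 0.30. Without each CLIP library in turn it lay between 0.23 and 0.32. No paired analysis was possible because the array and read tables hold 1 value per condition and the CLIP libraries are all wild type. Brightness has no stated background, so what its dim probes can resolve is unknown, and no array result carries an error between animals.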

Other observations

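The authors' score and the inclusion shift had the same sign for all 419 called events and for 456 of all 463, with a median gap of 0.05. A gap over 0.2 was found for 13 events. The gap of Tanc2 (0.87) was the largest, followed by Ddr1 (0.29), Car12 (0.28) and Ganab (0.26); Hivep2 stood out with 2 events, whose shifts of 1.60 and -0.62 were larger in size than their scores of 1.36 and -0.38 in the authors' deposited table. What the authors' score weighs beyond the 4 brightness values was not tested.

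Over the whole span of an event, 74.1% of less included, 69.8% of more included and 93.2% of uncalled events had at least 1 CLIP tag. All uncalled events had RNA-seq reads and were past the authors' RNA-seq q-value limit, so they do not stand for unaffected exons. Their median span was 6836 nt, against 5969 nt for less and 3868 nt for more included events. The part of span and transcript level in these shares was not tested.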
